A study of Mus musculus with 11 samples.

Results

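ETS factors are transcription factors that share a DNA-binding domain recognising a GGAA core. The 8 described here are Spib, Spi1, Spic, Ets1, Elf1, Elf4, Fli1 and Etv6, chosen as probes of the array that carry one of these gene names, out of 31473 gene names on it. They were chosen with their levels across lymphoma types already known, so their differences are given as descriptions without a test. The array holds 10 probes for them, 1 probe for each of 6 genes and 2 probes for each of Ets1 and Elf1. The search by current name found 9 probes of 7 genes, and Spi1 was found under its older name in the files, Sfpi1.

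RNA was measured in 11 lymph node lymphomas of Black 6 mice, each on its own one-colour array. By the tumour origin in the labels, 4 were plasma cell lymphomas (PCL), 3 were mantle cell lymphomas (MCL) and 4 were Burkitt lymphomas (BL). Every mouse, whatever its tumour, had the genotype c-myc-3'RR/p53+/-, that is a c-myc transgene under the 3' control region of the antibody heavy chain locus, which is active in B lineage cells, together with loss of 1 p53 allele. No normal B cells or tumours of another genotype were analysed here. Whether each tumour came from its own mouse is not given in the labels, and the spread within a type may be partly technical. Each type lay on 1 slide of its own, and differences between types and between slides cannot be told apart.

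Spi-B and PU.1, the products of Spib and Spi1, are close relatives that bind the same kind of purine-rich site, together with IRF4 or IRF8 at composite sites, and act in B cell receptor signalling. PU.1 is also the main ETS factor of myeloid cells, and Spi-C is known for its part in making red pulp macrophages of the spleen and for opposing PU.1 in B cells. Spi-B and Ets-1 are known to hold back the step to antibody-secreting plasma cells. Fli-1, Elf-1 and Elf-4 are activators found widely in blood cells, and Etv6 is a repressor needed by blood stem cells.

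The stretches of sequence before the start site are shown for Spib, Etv6 and Spic, because these genes had the widest range of levels over the 11 tumours. They are the 250 bases upstream of the start in RefSeq, build GRCm38.p6, written 5′ to 3′ on the gene's strand. Capitals mark the TATA motif, found in Spib only, and none of the other motifs searched was found in these 3 promoters.
Spib, chr7:44532072-44532321, minus strand: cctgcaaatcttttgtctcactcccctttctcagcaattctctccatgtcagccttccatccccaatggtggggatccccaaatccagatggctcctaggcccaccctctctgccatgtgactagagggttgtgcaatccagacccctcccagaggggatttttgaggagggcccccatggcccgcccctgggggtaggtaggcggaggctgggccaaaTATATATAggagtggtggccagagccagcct
Etv6, chr6:134035450-134035699, plus strand: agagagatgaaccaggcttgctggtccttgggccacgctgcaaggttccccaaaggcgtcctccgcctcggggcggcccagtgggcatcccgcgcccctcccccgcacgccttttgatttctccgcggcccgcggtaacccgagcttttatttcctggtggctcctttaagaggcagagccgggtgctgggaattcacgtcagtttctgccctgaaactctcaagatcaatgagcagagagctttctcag
Spic, chr10:88683024-88683273, minus strand: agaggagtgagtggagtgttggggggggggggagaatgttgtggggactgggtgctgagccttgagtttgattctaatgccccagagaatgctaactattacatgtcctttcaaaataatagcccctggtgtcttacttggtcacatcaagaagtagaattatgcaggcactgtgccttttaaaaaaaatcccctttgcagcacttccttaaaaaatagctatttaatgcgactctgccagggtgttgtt
The motifs, each searched on both strands, were the ETS forms GAGGAAGT and CCGGAA, the ETS-IRF composite element (GGAA and, 2 bases further, GAAA), the octamer ATGCAAAT, the E-box CACGTG and the TATA form TATATA. The TATA form occurs in 5.25% of all 32851 promoters of this length. In Spib it was found in 2 overlapping copies that begin 31 and 29 bases before the start. GAGGAAGT is held by 2.44% of all promoters, the other ETS form by 12%, the composite element by 2.3%, the octamer by 1.6% and the E-box by 6.02%. Of the other promoters matched, the second one of Elf1 holds the octamer on the reverse strand, 104 bases before the start, and the first one of Elf4 holds the E-box 219 bases before the start. A match is a run of letters and not a site shown to be bound. Spi1, Ets1 and Fli1 were not matched in the promoter table.

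The sequences that were measured are the 60-base probes. Those of Spi1 and of one Ets1 probe are shown, since both read as coding sequence. The Spi1 probe lies on the plus strand between chr2:90939665-90953452 of build mm9, a span longer than the probe. The Ets1 probe lies at chr9:32561826-32561885 on the plus strand.
Spi1 probe: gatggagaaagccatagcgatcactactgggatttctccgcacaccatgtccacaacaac
Ets1 probe: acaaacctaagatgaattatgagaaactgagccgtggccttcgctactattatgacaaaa
The other member probes were not placed in exons or UTRs, because no annotation of mm9 was used here. Spib was read by a probe at chr7:51781392-51781451, minus strand, Spic at chr10:88138053-88138112, minus strand, and Etv6 at chr6:134216664-134216723, plus strand. The second Ets1 probe is at chr9:32564860-32564919, plus strand, and Fli1's at chr9:32229857-32229916, minus strand. The Elf1 probes are at chr14:79981995-79982054 and chr14:79973368-79973425, plus strand, and the Elf4 probe at chrX:45766658-45766717, minus strand.

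Levels are log2 processed signals relative to the 75th percentile of their array, so that a level of 0 is the brightness of the 75th percentile and 1 unit is a doubling. Levels are compared for 1 probe between tumours and not between probes. Of the 10 member probes, 9 were well above background on all 11 arrays, and the Spic probe on 10. All 8 genes passed the filter of being well above background on at least 3 arrays, and 20181 genes passed it in all. On the arrays 55.5% to 62.8% of spots were well above background, 0 were saturated, and the 75th percentile lay between 1067 and 1632 intensity units. The labelled origins were checked against markers. All 10 B cell markers were well above background in every tumour. Of the 8 plasma cell markers, 5 had a positive and 3 a negative difference in PCL minus MCL, the negative ones being Derl3 at -1.31 ± 1.26 (SE), Xbp1 at -0.13 ± 0.33 and Irf4 at -0.02 ± 0.40. In PCL minus BL 7 of 8 were positive, and the median was 0.68 against MCL and 1.04 against BL. Sdc1 (syndecan-1) ranged from -3.25 to -0.32 in PCL, from -4.14 to -2.50 in MCL and from -5.26 to -3.16 in BL. Of the mantle cell markers, Ccnd1 (cyclin D1) differed by -2.43 ± 0.64 in PCL minus MCL (limma, adjusted p = 0.0513) and by 0.12 ± 0.64 in MCL minus BL, Cd5 differed by -2.13 ± 1.10 and 0.96 ± 1.10, and Sox11 did not pass the filter. Of 6 germinal centre markers 4 were measured, of which 3 were positive in PCL minus BL and 2 in MCL minus BL. By limma 0 markers of these 3 lists were called between any types. Unadjusted p-values under 0.05 were found for 3, 4 and 0 plasma cell, 1, 1 and 0 mantle cell and 0, 0 and 0 germinal centre markers in PCL vs MCL, PCL vs BL and MCL vs BL. In the same order, 24.3%, 17.6% and 18.4% of all genes had an unadjusted p under 0.05. Called at an adjusted p under 0.05 were 6.85% of all genes in PCL vs MCL, 2.11% as higher and 4.75% as lower in PCL, 0.659% in PCL vs BL and 6.62% in MCL vs BL.

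Spib was lower in every PCL than in every MCL and BL tumour. The levels were 4.03, 2.84, 3.40 and 2.79 in PCL1 to PCL4. In MCL1 to MCL3 they were 5.30, 5.36 and 5.32, and in BL1 to BL4 they were 4.54, 4.61, 5.26 and 5.16. PCL1 was the highest of its type and still lay 0.51 below the lowest BL tumour and 1.27 below the lowest MCL tumour. The mean was 3.26 ± 0.58 in PCL (SD, n = 4), 5.33 ± 0.03 in MCL (n = 3) and 4.89 ± 0.37 in BL (n = 4). PCL minus MCL was -2.06 ± 0.31 (SE), which is 4.18-fold lower in PCL, and PCL minus BL was -1.63 ± 0.29, 3.09-fold lower in PCL. MCL minus BL was 0.44 ± 0.31, with the ranges apart by only 0.04. Spib varied least within MCL, where its range was 0.06, against 0.72 in BL and 1.25 in PCL. Of all 20181 genes, 345 (1.71%) likewise had every PCL level below every MCL and BL level. That order was part of why Spib was chosen, and nothing is read from the share.

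B cell markers are given beside Spib, because it is a B lineage gene. Of the 10 markers, 6 had a positive and 4 a negative difference in PCL vs MCL. Against BL, 8 of 10 had a negative difference, with a median of -0.64, against 0.09 over all genes, and 4 had an unadjusted p under 0.05, where 17.6% of all genes did. With limma 0 of 10 were called in any comparison, with 2 and 1 at an unadjusted p under 0.05 in PCL vs MCL and MCL vs BL. The most negative marker was Ms4a1, which encodes CD20, at -1.53 ± 0.40 in PCL vs BL (limma, adjusted p = 0.103) and -1.53 ± 0.43 in PCL vs MCL (limma, adjusted p = 0.062). The summed level of the markers was 228 to 333 in PCL, 258 to 302 in MCL and 317 to 366 in BL, on a linear scale where 1 is the 75th percentile of the array. Fewer cells of a type and less RNA per cell cannot be told apart in bulk tumours, and the part of cell content in the Spib difference was not tested.

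Spi1 was low in MCL. Its levels were -2.34, -1.58, -1.50 and -1.32 in PCL1 to PCL4, against -2.69, -3.48 and -3.04 in MCL1 to MCL3. In BL1 to BL4 they were -2.07, -1.62, -1.97 and -2.27. Every MCL level lay below every PCL and BL level, while the PCL and BL ranges overlapped. PCL minus MCL was 1.38 ± 0.29 (SE), or 2.61-fold higher in PCL, and MCL minus BL was -1.09 ± 0.29, or 2.13-fold lower in MCL. PCL minus BL was 0.30 ± 0.27. Spib and Spi1 thus had opposite signs in PCL minus MCL, with Spib's level lower and Spi1's higher in PCL.

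Spic was high in 3 of the 4 PCL tumours. The levels were -3.92, -0.54, -0.50 and -0.81 in PCL1 to PCL4, -3.72, -6.03 and -4.14 in MCL1 to MCL3, and -4.57, -3.67, -2.82 and -3.40 in BL1 to BL4. PCL1 stood with the MCL and BL tumours, and PCL2 to PCL4 lay above all of them. The spot of MCL2 was not well above background. PCL minus MCL was 3.19 ± 0.88 (SE) and PCL minus BL was 2.17 ± 0.81, and both pairs of ranges overlapped through PCL1. Without PCL1 these differences were 4.02 and 3.00. MCL minus BL was -1.02 ± 0.88, and without MCL2 it was -0.32.

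**Figure D1:**
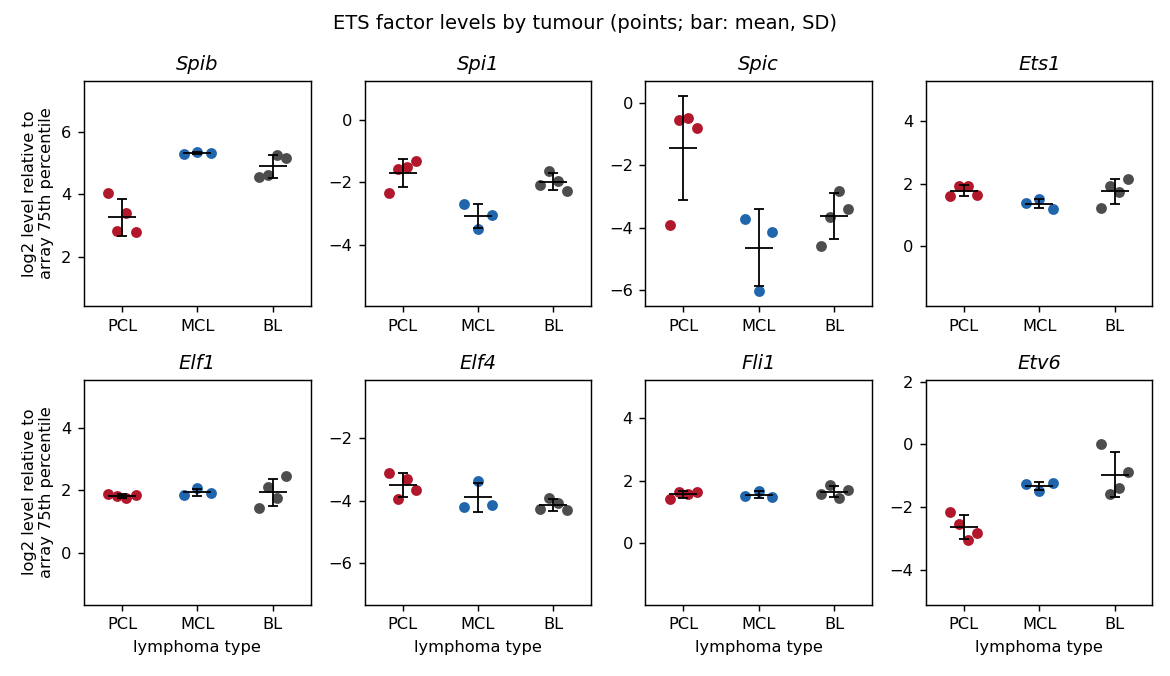
Levels of the 8 ETS factors by lymphoma type, with 1 panel per gene (1 probe each, the one with the higher mean for Ets1 and Elf1). Points are tumours, PCL, MCL and BL from left to right, the bar is the mean with its SD, and the vertical axis is the log2 level relative to the array's 75th percentile, with the same length of axis in every panel. Spib in PCL lies between 2.79 and 4.03, below all other tumours, and Spic in PCL splits into PCL1 at -3.92 and the other tumours at -0.81 and above.

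Markers of macrophages, granulocytes and plasma cells were set beside Spic and Spi1. Of 15 macrophage markers, 14 had a positive difference in PCL vs MCL and 14 in PCL vs BL, with medians of 2.07 and 1.30, against -0.03 and 0.09 over all genes. Of 6 measured red pulp macrophage markers, all 6 had positive differences in both comparisons, with medians of 2.18 and 2.10. Cd163, also on that list, did not pass the filter. The tumours were of lymph nodes, and whether these markers came from red pulp macrophages was not tested. By limma 1 of the 15 and 1 of the 6 were called in PCL vs MCL, with 10 and 3 at an unadjusted p under 0.05, where 6.85% of all genes were called and 24.3% had such a p. The called ones were the scavenger receptor gene Msr1, at 2.07 ± 0.47 (limma, adjusted p = 0.0314), and Vcam1, an adhesion molecule of red pulp macrophages and of vessels, at 4.27 ± 1.04 (limma, adjusted p = 0.0397). By limma 0 were called in PCL vs BL, with 6 and 3 at an unadjusted p under 0.05, where 17.6% of all genes had one. Msr1 was well above background on 1 of 3 MCL arrays. The Vcam1 ranges overlapped, with PCL1 at -2.18 and MCL1 at -2.11. Msr1 stayed past the threshold in 7 of 19 alternative settings and Vcam1 in 8 of 20. Without 1 tumour, the Msr1 difference lost its call for 6 of 11 tumours and ranged from 1.78 to 2.46, and the Vcam1 difference lost its call for 8 of 11 and ranged from 3.52 to 5.23.

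Tumour by tumour, the median of the red pulp markers, each first centred on its mean over the 11 tumours, was -1.13, 2.87, 2.00 and 2.05 in PCL1 to PCL4. It was 0.23, -2.19 and -1.54 in MCL1 to MCL3 and -0.98, -0.61, 0.02 and -0.81 in BL1 to BL4. The tumours with the highest Spic levels, PCL2 to PCL4, also had the highest red pulp medians, and MCL2 had the lowest of both. The median of the macrophage markers was -0.74, 2.25, 0.96 and 1.56 in PCL1 to PCL4, 0.50, -1.72 and -1.20 in MCL1 to MCL3, and -0.51, -0.61, 0.04 and -0.36 in BL1 to BL4. Spi1 and this median were both highest in PCL2 to PCL4. BL2 came next in Spi1, at -1.62, and had a median of -0.61. MCL1 had a macrophage median of 0.50, above every BL tumour, and a Spi1 level of -2.69, below every BL tumour. The summed level of the 15 macrophage markers ranged from 14.96 to 38.8 in PCL, 14.2 to 22.7 in MCL and 10.4 to 22.7 in BL. Itgam, the brightest of them in every tumour at 2.80 to 4.06, weighs most in this sum. All 15 markers were well above background in every PCL tumour, 11 to 14 of them in MCL and 14 to 15 in BL. For the red pulp markers the summed level ranged from 0.967 to 12.8 in PCL, 0.412 to 3.86 in MCL and 0.960 to 2.39 in BL.

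Granulocyte markers were positive for 7 of 8 in both PCL comparisons, with medians of 1.55 in PCL minus MCL and 0.53 in PCL minus BL. By limma 1 of 8 was called in PCL vs MCL, where 6.85% of all genes were called. It was Elane, the elastase gene of neutrophil precursors, which was lower in PCL by 1.02 ± 0.19 (limma, adjusted p = 0.0161). Elane lost this call without PCL4, at -0.99, or MCL1, at -0.92. In MCL vs BL, where 6.62% of all genes were called, Elane was called as higher in MCL. That call was lost without 0 of 11 tumours. Of the 8 granulocyte markers, 2 were positive and 6 negative in MCL minus BL, with a median of -0.82. In PCL vs BL 0 were called by limma. An unadjusted p under 0.05 was found for 2 and 0 in PCL vs MCL and PCL vs BL, where 24.3% and 17.6% of all genes had one. The median of the granulocyte markers was -1.72, 3.25, 0.13 and 1.11 in PCL1 to PCL4, -2.20, 0.34 and -0.53 in MCL1 to MCL3, and -2.01, 0.96, 0.01 and 1.83 in BL1 to BL4. PCL2 had the highest median, BL4 the next, and MCL1, BL1 and PCL1 the 3 lowest. The summed level of the 8 markers was 95.3 to 110.4 in PCL, 78.4 to 93.9 in MCL and 80.1 to 97.2 in BL, and 5 to 8 of them were well above background in a tumour. Most of that sum is 1 marker, Csf3r, whose level was between 6.25 and 6.71 in all tumours. In PCL1, with a median of -1.72, Csf3r was at 6.56, so the sum is not read as granulocyte content. The median of the plasma cell markers was 0.06, 0.37, 0.73 and 0.60 in PCL1 to PCL4, 0.43, -0.86 and -0.17 in MCL1 to MCL3, and -1.07, -0.33, -0.05 and -0.02 in BL1 to BL4. PCL3 and PCL4, with high Spic, had the highest plasma cell medians, and MCL1, with low Spic, came next. Of the T cell, endothelial and erythroid markers, 4 of 10, 3 of 5 and 4 of 4 were positive in PCL minus MCL, with medians of -0.10, 0.35 and 0.29. In MCL minus BL 3, 3 and 1 of them were positive, with medians of -0.18, 0.25 and -0.63. The T cell marker Cd4 was called in PCL vs MCL, at -0.78 (limma, adjusted p = 0.0376). It was also called in MCL vs BL, at 0.96 (limma, adjusted p = 0.0145). The endothelial marker Kdr was called in MCL vs BL, at 0.82 (limma, adjusted p = 0.0487). These calls were lost without 6, 2 and 9 of 11 tumours. Of all genes 6.85% were called in PCL vs MCL and 6.62% in MCL vs BL. The part of macrophage, granulocyte or plasma cell content in the Spic and Spi1 differences was not tested.

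**Figure D2:**
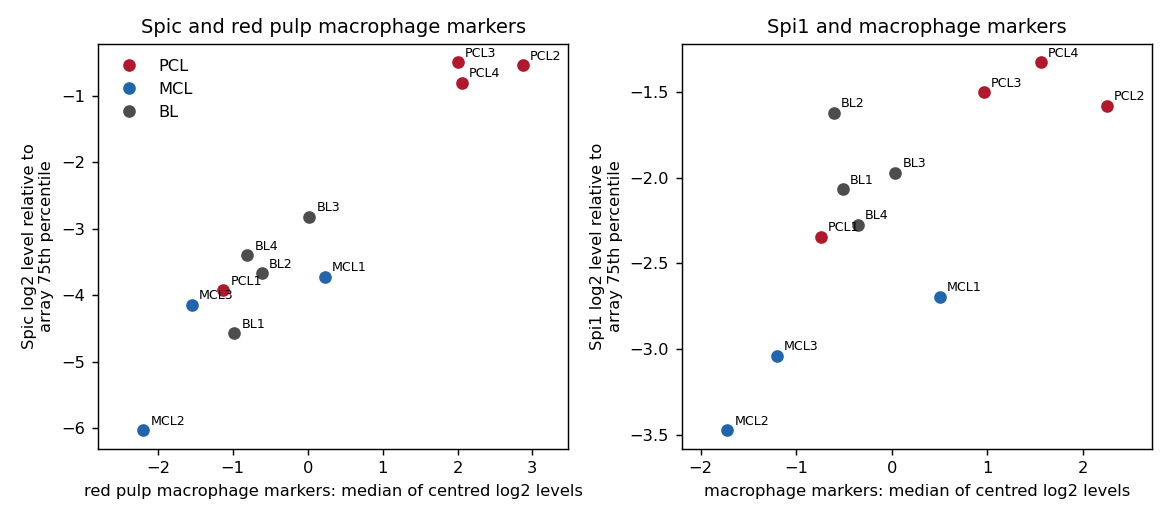
Spic level against the median of 6 red pulp macrophage markers (left) and Spi1 level against the median of 15 macrophage markers (right), for the 11 tumours. Vertical axes are log2 levels relative to the array's 75th percentile and horizontal axes are medians of log2 levels centred on the 11 tumours. PCL2 to PCL4 stand apart at the upper right for Spic, and PCL1, at -1.13 and -3.92, lies among the MCL and BL tumours.

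Etv6 was lower in every PCL than in every MCL and BL tumour. The levels were -2.16, -2.54, -3.06 and -2.83 in PCL1 to PCL4, -1.28, -1.49 and -1.24 in MCL1 to MCL3, and 0.00, -1.59, -1.39 and -0.87 in BL1 to BL4. BL1 was the highest of all tumours. PCL minus MCL was -1.31 ± 0.36 (SE), or 2.48-fold lower in PCL, and PCL minus BL was -1.68 ± 0.34, or 3.21-fold lower. MCL and BL overlapped, at -0.37 ± 0.36. The probe reads 1 part of the Etv6 transcript only.

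The levels of whole chromosomes 7 and 6 were lowest in PCL2 to PCL4, where Spib and Etv6 were also lowest. For a chromosome, the median over its brighter genes of the level centred on the 11 tumours was taken. On chromosome 7, which holds Spib, this median over 754 genes was 0.04, -0.50, -0.12 and -0.31 in PCL1 to PCL4, 0.02, 0.26 and 0.06 in MCL1 to MCL3, and 0.17, 0.23, 0.20 and 0.05 in BL1 to BL4. PCL2, PCL3 and PCL4 were thus lower over the chromosome, while PCL1, with a Spib level under all MCL and BL tumours, was not lower than MCL1. Among the 64 such genes within 2 Mb of Spib, the median difference was -0.54 in PCL minus MCL and -0.50 in PCL minus BL. Spib's own differences were more negative than those of all but 4 and 5 of these genes. Spib was chosen with its differences known, so nothing is read from that rank. With the median of the 64 genes subtracted in each tumour, the Spib difference was -1.55 in PCL minus MCL and -1.18 in PCL minus BL, and the ranges stayed apart in both. MCL and BL, at 0.37, then overlapped.

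For Etv6 the median of 454 genes of chromosome 6 was 0.04, -0.42, -0.47 and -0.51 in PCL1 to PCL4, 0.02, 0.19 and 0.13 in MCL1 to MCL3, and 0.56, 0.17, 0.12 and 0.10 in BL1 to BL4. BL1, the tumour with the highest Etv6, was also the one with the highest chromosome 6 median. PCL1, with an Etv6 level under all MCL and BL tumours, was not lower than MCL1 over the chromosome. The 15 genes within 2 Mb had median differences of -0.72 in PCL minus MCL and -0.43 in PCL minus BL. Of them 0 differed more negatively than Etv6, which was also chosen with its differences known, so nothing is read from that rank. With the median of the 15 genes subtracted, the Etv6 differences were -0.88 and -1.37, with no overlap of PCL with MCL or BL. The part of gene copies or of other chromosome-wide effects in these differences was not tested. On the chromosomes of the other members, the per-type means of this median differed by less than 0.2 between types.

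**Figure D3:**
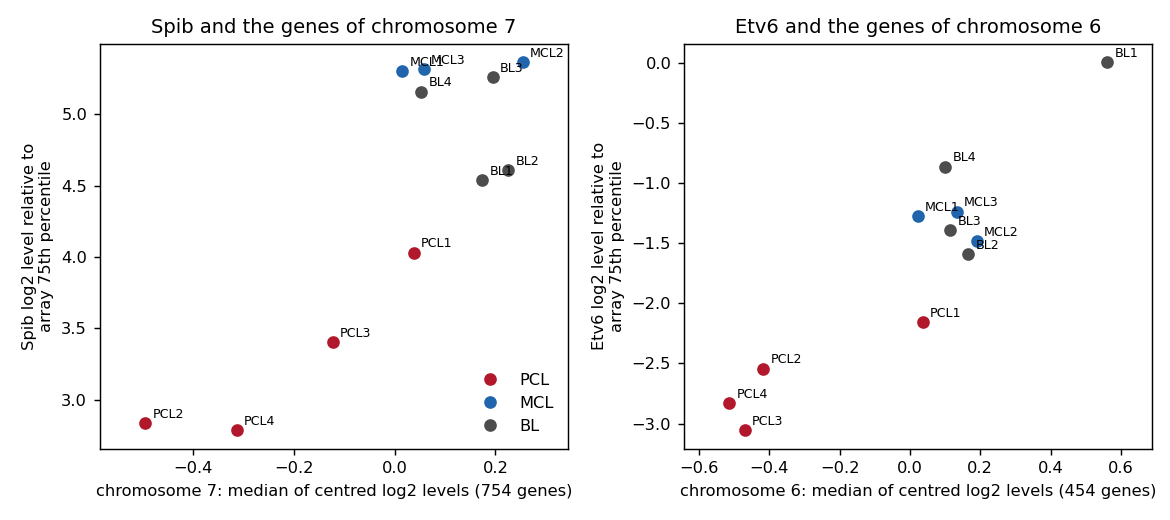
Spib level against the median of 754 genes of chromosome 7 (left) and Etv6 level against the median of 454 genes of chromosome 6 (right), for the 11 tumours. Vertical axes are log2 levels relative to the array's 75th percentile and horizontal axes are medians of log2 levels centred on the 11 tumours. PCL1 has a chromosome 7 median of 0.04, within the range of MCL and BL, and a Spib level of 4.03, below their lowest of 4.54.

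Ets1, Elf1, Elf4 and Fli1 differed little between types. By the probe printed above, Ets1 had levels of 1.61, 1.93, 1.93 and 1.65 in PCL1 to PCL4, 1.37, 1.51 and 1.20 in MCL1 to MCL3, and 1.21, 1.93, 1.71 and 2.16 in BL1 to BL4. All PCL levels were above all MCL levels, by a gap of 0.10, and BL overlapped both. PCL minus MCL was 0.42 ± 0.23 (SE) by this probe and 0.41 ± 0.35 by the second one, where the PCL and MCL ranges were apart by 0.04. PCL minus BL was 0.02 ± 0.21 and MCL minus BL was -0.39 ± 0.23. The second probe spread more among the BL tumours, between 0.92 in BL1 and 2.40 in BL4.

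The brighter Elf1 probe had levels between 1.75 and 1.88 in PCL, between 1.84 and 2.06 in MCL and between 1.42 and 2.44 in BL, with the extremes in BL1 and BL4. Its differences were -0.12 ± 0.23 (SE) in PCL minus MCL, -0.11 ± 0.21 in PCL minus BL and 0.01 ± 0.23 in MCL minus BL. The other Elf1 probe gave 0.22 ± 0.19 and 0.21 ± 0.18 for the PCL comparisons, the opposite sign, so no direction is given for Elf1. Elf4 ranged from -3.93 to -3.102 in PCL, from -4.19 to -3.37 in MCL and from -4.30 to -3.90 in BL. Its differences were 0.40 ± 0.27 in PCL minus MCL, 0.64 ± 0.25 in PCL minus BL and 0.24 ± 0.27 in MCL minus BL, with overlap in all 3. Fli1 varied least of the 8 genes over the tumours, with a range of 0.45 over all 11 tumours. Its level was 1.57 ± 0.11 in PCL (SD, n = 4), 1.56 ± 0.10 in MCL (n = 3) and 1.65 ± 0.17 in BL (n = 4).

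Counted over the 8 members, the levels did not overlap between types for 4 of 8 in PCL vs MCL (22.8% of all genes), for 2 of 8 in PCL vs BL (11%) and for 2 of 8 in MCL vs BL (17.7%). Because the members were chosen on these levels, nothing is read from these counts. The median difference of the members was 0.20, -0.03 and -0.23 in PCL vs MCL, PCL vs BL and MCL vs BL, against -0.03, 0.09 and 0.06 over all genes.

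The ETS genes outside these 8 were tested, with p-values adjusted over all 20181 genes. Of 18 listed, 15 passed the filter, and Elf3, Elf5 and Erg did not. In PCL vs MCL 1 rose and 1 fell by limma, where 6.85% of all genes were called, and 3 of 15 had an unadjusted p under 0.05, where 24.3% of all genes did. Erf, a repressor of ETS target genes that is held in check by ERK, had levels of 0.98, -0.20, 0.13 and -0.31 in PCL1 to PCL4, against 1.18, 2.28 and 1.55 in MCL1 to MCL3. Its 4 PCL levels lay below the 3 MCL levels, and the difference was -1.52 ± 0.39 (limma, adjusted p = 0.0484). Erf lies on chromosome 7, as Spib does. Over the 20 alternative settings Erf stayed past the threshold in 6, and its difference ranged from -1.80 to -1.22.

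Elk3, a ternary complex factor that works with SRF, had levels of 0.02, -0.26, 0.67 and 0.40 in PCL1 to PCL4, against -2.54, -1.16 and -1.06 in MCL1 to MCL3. Its difference was 1.79 ± 0.38 (limma, adjusted p = 0.0261). Its 3 probes did not give 1 answer. A second one gave 1.24 ± 0.39 in PCL minus MCL (limma over probes, adjusted p = 0.0938) and the other one gave -1.31 ± 0.23 (limma over probes, adjusted p = 0.0152), so the direction of Elk3 depends on the probe.

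Of the 15 other ETS genes 0 were called by limma in PCL vs BL, with 2 at an unadjusted p under 0.05, where 17.6% of all genes had one. The largest differences were Erf at -1.27 ± 0.37 (SE), Etv5, a factor induced by ERK signalling, at -1.18 ± 0.46, and Etv1 at 0.79 ± 0.63, which ranged from 0.45 without PCL2 to 1.43 without BL3. In MCL vs BL 0 were called by limma, with 2 at an unadjusted p under 0.05, where 18.4% of all genes had one. The largest differences were Ehf, an epithelial ETS factor, at 2.06 ± 1.67, Elk3 at -1.28 ± 0.38 and Etv2, a factor of endothelial and blood precursors, at 1.11 ± 1.04. Without BL2, where its spot was not well above background, the Ehf difference was 0.78. Etv2 was well above background on 2 of 3 MCL and 2 of 4 BL arrays, and its difference ranged from 0.38 without BL3 to 1.83 without MCL2. The Elk3 difference was -0.80 without MCL1. A second Elk3 probe gave -1.24 ± 0.39 in MCL minus BL (limma over probes, adjusted p = 0.12). The other one gave 0.98 ± 0.23 (limma over probes, adjusted p = 0.0387), so the direction of Elk3 depends on the probe here too. The median difference of the 15 genes was 0.07, -0.04 and 0.05 in PCL vs MCL, PCL vs BL and MCL vs BL.

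**Figure D4:**
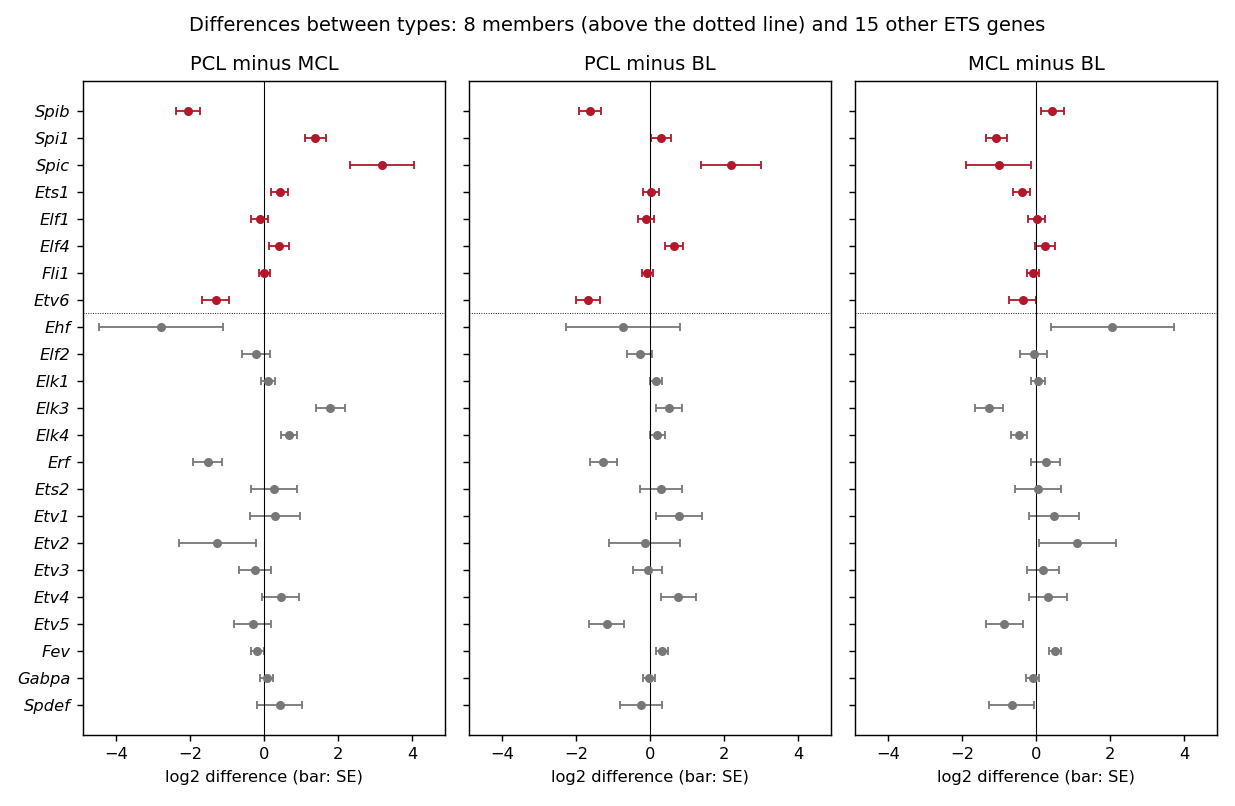
Differences in log2 level between lymphoma types, PCL minus MCL, PCL minus BL and MCL minus BL from left to right, for the 8 members (red, above the dotted line) and 15 other ETS genes (grey). Points are differences of type means and bars their SE. Spib and Etv6 lie left of 0 in both PCL comparisons, and Fli1 lies within 0.1 of 0 in all 3. Spi1 and Elk3, the latter by its brightest probe, lie right of 0 in PCL minus MCL and left in MCL minus BL.

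Partners of ETS factors were listed next, the IRF, RUNX, octamer, GABP, JUN and similar proteins that bind DNA beside them. All 14 were measured and 0 were called by limma in any of the 3 comparisons, with 4, 3 and 2 of 14 at an unadjusted p under 0.05 in PCL vs MCL, PCL vs BL and MCL vs BL, where 24.3%, 17.6% and 18.4% of all genes had one. In PCL vs MCL the largest differences were those of the octamer coactivator gene Pou2af1, at 1.27 ± 0.34 (limma, adjusted p = 0.055), of the myeloid factor gene Cebpa, at 1.13 ± 0.55, and of Runx1, at 0.93 ± 0.30. Cebpa was well above background on 2 of 4 PCL and 1 of 3 MCL arrays, and without MCL2 its difference was 0.35. Without MCL3 the Runx1 difference was 0.58. For PCL vs BL they were those of Jun, at 1.92 ± 0.41 (limma, adjusted p = 0.0621), of Irf8, which binds with PU.1 and Spi-B, at -1.23 ± 0.34, and of the octamer factor gene Pou2f2, at -1.10 ± 0.29. Irf8 levels were 3.53, 3.30, 3.72 and 3.54 in PCL1 to PCL4, against 4.96, 4.56, 4.77 and 4.71 in BL1 to BL4. The Irf8 ranges of these types did not overlap, as those of 11% of all genes did not. In MCL vs BL the largest were those of Jun, at 1.36 ± 0.44, of Pou2af1, at -0.73 ± 0.34, and of Gabpb2, a subunit of the GABP complex, at -0.70 ± 0.19. Without MCL1 the Pou2af1 difference was -0.43.

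Genes of B cells known to be regulated by ETS factors were all measured, 18 of 18. By limma 0 rose and 2 fell in PCL vs MCL, Rel and Tnfrsf13c, where 4.75% of all genes fell, and the unadjusted p was under 0.05 for 2 of 18, where it was for 24.3% of all genes. Tnfrsf13c encodes the BAFF receptor, which mature B cells need to survive. Its levels were 2.26, 1.16, 1.42 and 0.99 in PCL1 to PCL4, against 3.73, 3.54 and 3.104 in MCL1 to MCL3 and 2.44, 3.50, 3.30 and 2.07 in BL1 to BL4. All PCL levels lay below all MCL levels, and the difference was -2.003 ± 0.41 (limma, adjusted p = 0.0226). A second Tnfrsf13c probe gave -1.92 ± 0.50 (limma over probes, adjusted p = 0.054). Against BL the difference was -1.37 ± 0.38 (limma, adjusted p = 0.11), and the ranges overlapped.

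Rel encodes the NF-kB subunit c-Rel. Its levels were -4.20, -5.92, -5.43 and -6.15 in PCL1 to PCL4, against -3.06, -1.57 and -3.31 in MCL1 to MCL3 and -4.45, -4.33, -4.05 and -4.01 in BL1 to BL4. The probe was well above background on 1 of 4 PCL arrays and on all MCL and BL arrays. PCL minus MCL was -2.78 ± 0.51 (limma, adjusted p = 0.0161), and with the normexp background correction it was -1.10 (limma, adjusted p = 0.339).

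The other 16 genes of this list did not pass the threshold in PCL vs MCL. Of the 18, 0 were called by limma in PCL vs BL, with 5 at an unadjusted p under 0.05, where 17.6% of all genes had one. The largest differences there were Grap2, a T cell adaptor, at -1.77 ± 1.06 (SE), Prdm1, which encodes the plasma cell factor Blimp-1, at 1.68 ± 0.53, and Tnfrsf13c. Grap2 was well above background on 3 of 4 PCL arrays, and without PCL4 its difference was -1.18. In MCL vs BL 0 were called by limma, with 2 at an unadjusted p under 0.05, where 18.4% of all genes had one, and the largest differences were the interleukin-7 receptor gene Il7r at -3.32 ± 1.43, Rel at 1.56 ± 0.51 and Prdm1 at 0.94 ± 0.57. Il7r in MCL1, at -5.70, was not well above background, and without MCL1 its difference was -1.64. Rel was at 1.02 without MCL2 and Prdm1 at 0.61 without BL1. The list's median difference was 0.08, -0.20 and -0.08 in PCL vs MCL, PCL vs BL and MCL vs BL.

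**Figure D5:**
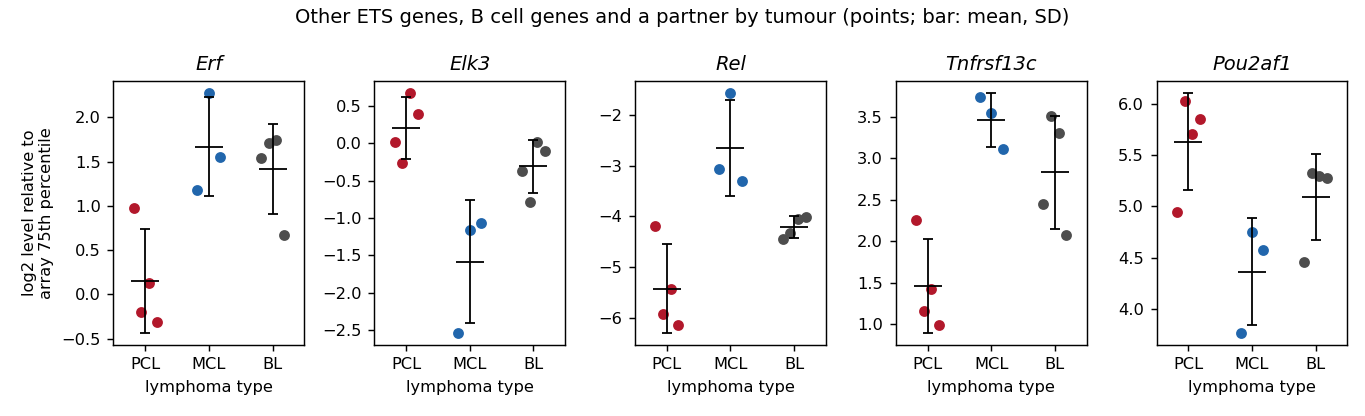
Levels of Erf, Elk3 (its brightest probe), Rel, Tnfrsf13c and Pou2af1 by lymphoma type. Points are tumours, PCL, MCL and BL from left to right, the bar is the mean with its SD, and the vertical axis is the log2 level relative to the array's 75th percentile, on its own scale in each panel. Erf, Rel and Tnfrsf13c are lower in every PCL than in every MCL tumour, and Elk3 and Pou2af1 are higher in every PCL than in every MCL tumour.

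The genes whose levels followed Spib most closely over the 11 tumours were sought among 11000 protein-coding genes that were well above background on every array. The correlation is a description, since the tumours share types and slides and many genes differ between types. The 10 genes with the highest Pearson r were Mdp1 (0.957), Itpr2 (0.954), Swap70 (0.952), Hvcn1 (0.951), Lamtor1 (0.947), Leng9 (0.946), Map4k1 (0.945), Kdelr1 (0.942), Mtmr14 (0.941) and Fuz (0.939). After each type's mean was subtracted, r ranged from 0.637 for Fuz to 0.877 for Leng9 among these. Picking genes by r over the same tumours favours a high value here too, so nothing is read from it. Itpr2 encodes an inositol trisphosphate receptor, Swap70 a protein of activated B cells, Hvcn1 a proton channel and Map4k1 a kinase of antigen receptor signalling. Hvcn1 averaged 2.71 in PCL, 4.03 in MCL and 4.05 in BL, and Map4k1 averaged 4.04 in PCL, 5.42 in MCL and 4.98 in BL.

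Of these 10 genes, 6 lie on chromosome 7 and 2 on chromosome 6, where 8.03% and 4.64% of the genes compared lie. Of the 31 genes with r over 0.9, 15 (48.4%) lie on chromosome 7. The probes of the 6 lie 0.374 Mb (Fuz), 1.35 Mb (Kdelr1), 22.0 Mb (Map4k1), 47.7 Mb (Leng9), 57.3 Mb (Lamtor1) and 65.6 Mb (Swap70) from that of Spib. The 5 genes with the most opposite pattern were Map3k15 (-0.969), Tmem258 (-0.953), Hfm1 (-0.948), Kdm5b (-0.944) and Mpp1 (-0.940), with 0 of 5 on chromosome 7. Map3k15, a kinase of the MAP kinase cascade, averaged 2.74 in PCL, -2.88 in MCL and -2.08 in BL. The median r over the genes compared was -0.02.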

How the data were processed

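Levels of 8 ETS factors were read from one-colour Agilent arrays of 11 mouse lymphomas, 4 PCL, 3 MCL and 4 BL, with 0.2 micrograms of total RNA each and RNA integrity numbers of 8 to 10, per the labels. The authors' scanner files hold the processed signal, an intensity on a linear scale made with Agilent Feature Extraction 10.7.3.1, with a spatial background surface subtracted within the array, per the file headers. The mean signal and median background of the spots, intensities as deposited, served an alternative correction. The deposited value table of the authors is in log2 units, as found from its values, with medians of 7.25 to 7.26, with its making not described in the sources used here.

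Of 43020 non-control spots, those marked as outliers were left out and the rest of a probe averaged. From the log2 signal the 75th percentile of its array was subtracted. Kept were probes above background, by the software's call, on 3 arrays or more, 25296 of 39429, and the probe with the highest mean stood for a gene. Substitute values set by the software for dim spots made up 21.5% to 29.2% of an array, which affects dim probes most. Coordinates of probes are those of mm9, per the file headers. Gene names came from the mouse RefSeq annotation GRCm38.p6, by accession for 26581 probes, by current symbol for 2597 and by older symbol for 492, and 9759 kept the name in the files.

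Differences, first-named type minus second, and their SE came from limma 3.58.1 in R 4.3.3, fitted to all 11 arrays with a mean per type (8 residual degrees of freedom, median SE 0.314 for PCL minus MCL), and a gene was called at a Benjamini-Hochberg adjusted p under 0.05 over 20181 genes. Every adjusted p comes from this fit, or from the same fit over all probes where so named. The number of arrays limits the precision. The fit was tested on simulated data. The members and all lists were chosen with earlier results of these data known. Members have no calls here. The text names all members. For another list the rule picks the genes called, or else the 3 with the largest differences. The text names all of these for the other ETS genes, the partners and the regulated B cell genes. For the cell type markers it names the genes called. Some others, where a sentence singles them out, were chosen after their values were seen. Alternatives were normexp correction, quantile normalization, the authors' log2 table, other filters, every probe, 2 types only, array weights, a block for array position and leaving out each tumour. Array positions share only a number between slides. Of 10 pairs of arrays at the same position, 3 had deviations from the type means correlated over 0.1 (r of -0.05 to 0.17), so the position was not taken as a pairing.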

Additional observations from a re-analysis of the deposited data

Results flagged for a closer look

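In 10 of 134 groups of 4 tumours, 1 tumour stood far from the others of its type by Dixon's test. Chance gives such a result in about 1 in 20 groups. PCL1 accounted for 7 of the 10, BL1 for 2 and PCL3 for 1. MCL, with 3 tumours, was not tested.

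Among the ETS factors the tumour that stood apart was PCL1 for Spic, at -3.92, with the nearest other PCL tumour at -0.81. The same tumour stood apart in 3 red pulp macrophage markers, with levels of -2.18 for Vcam1, -4.83 for Slc40a1, the iron exporter ferroportin, and -4.84 for Axl, a receptor for apoptotic cells. The nearest other PCL tumours had 1.49 for Vcam1, -0.80 for Slc40a1 and -0.37 for Axl. Whether Spic and these markers came from the same cells was not tested. PCL1 was also low in Il7r, at -2.23, against 1.39 in the nearest other PCL tumour. Its Cd72 level, of a B cell coreceptor, was 1.84, against 3.29. The T cell adaptor gene Lat was higher in PCL1, at -2.31, than in the next PCL tumour, at -3.23. BL1 was low in Pou2af1, at 4.46, against 5.28 in the nearest other BL tumour, and high in Cd5, at 2.68, against -0.28. PCL3 was high in the endothelial receptor gene Kdr, at 2.54, against 2.01.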

How the results depend on the processing

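Over the 20 alternatives the Spib differences ranged from -2.33 to -1.90 in PCL minus MCL, -1.96 to -1.47 in PCL minus BL and 0.32 to 0.56 in MCL minus BL. Counts of called genes moved more, and the cause was not tested. The main counts over all genes were 1383, 133 and 1336 in PCL vs MCL, PCL vs BL and MCL vs BL. They were 197, 13 and 64 with normexp, 686, 85 and 963 with no filter, 740, 117 and 290 with 2 types only, and 4433, 2181 and 1123 with array weights. In MCL vs BL quantile normalization gave 746 and the authors' values gave 680.

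Other ETS family genes called in PCL vs MCL numbered 2 in the main fit, 0 with normexp and with 2 types only, 1 with no filter and with every probe, and 4 with array weights. Array weights gave 1 in PCL vs BL and every probe gave 1 in MCL vs BL, against 0. ETS partners called in PCL vs MCL numbered 0, but 1 with probes well above background on all 11 arrays and 5 with array weights. Against BL they were 1 with 2 types only and 3 with array weights, and in MCL vs BL 1 with array weights and 1 with probes well above background on all 11 arrays. B cell genes regulated by ETS factors called in PCL vs MCL numbered 2, but 0 with normexp, 1 with 2 types only and 1 with probes well above background on all 11 arrays. Array weights gave 2 in PCL vs BL.

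With a replicate block for array position, which does not pair the tumours, 390, 65 and 361 genes were called in PCL vs MCL, PCL vs BL and MCL vs BL. For PCL vs MCL 0 other ETS family genes, 1 ETS partner and 0 B cell genes regulated by ETS factors were then called, and 1 B cell gene of that list in MCL vs BL. The Spib differences with the block were -2.03, -1.63 and 0.40.

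With each tumour left out in turn, the counts over all genes ranged from 330 to 2455 in PCL vs MCL, from 5 to 1079 in PCL vs BL and from 683 to 1365 in MCL vs BL. Without PCL1, 2455 genes were called in PCL vs MCL and 1079 in PCL vs BL. Leaving out PCL2 gave 330 and 5, leaving out PCL3 gave 552 and 37, and leaving out PCL4 gave 336 and 28. For PCL vs MCL, 685 were called when MCL1 was left out, 473 for MCL2 and 675 for MCL3. For PCL vs BL, 36 were called when BL2 was left out, 45 for BL3 and 64 for BL4. For MCL vs BL, 683 were called when MCL1 was left out, 741 for MCL2 and 743 for BL2. Other ETS family genes called ranged from 0 to 2 in PCL vs MCL and from 0 to 1 in PCL vs BL, where the 1 came without PCL1. ETS partners ranged from 0 to 1, 0 to 2 and 0 to 1 in PCL vs MCL, PCL vs BL and MCL vs BL, and B cell genes regulated by ETS factors from 0 to 2, 0 to 2 and 0 to 1.

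Of the genes of the lists called in PCL vs MCL, Erf stayed past the threshold in 6 of 20 alternatives, Elk3 in 12 of 20 and Tnfrsf13c in 13 of 20. Rel stayed past it in 14 of 19, Msr1 in 7 of 19, Vcam1 in 8 of 20, Cd4 in 10 of 20 and Elane in 16 of 20. Each kept the same sign by the probe that stood for its gene, while another Elk3 probe gave -1.31 in PCL minus MCL. Erf lost its call without each tumour other than PCL1 and BL4, Elk3 and Tnfrsf13c without PCL2, PCL3, PCL4, MCL1 or MCL2, and Rel without PCL2 or PCL4. Msr1 lost it without any of PCL2 to PCL4 and MCL1 to MCL3, and Vcam1 without PCL2 to PCL4, MCL2, MCL3 or BL2 to BL4. Cd4 lost it without PCL2 to PCL4, MCL1, MCL2 or BL2, and Elane without PCL4 or MCL1. Over the alternatives, by the probes that stood for the genes, the difference ranged from 1.32 to 2.06 for Elk3. The difference ranged from -2.27 to -1.80 for Tnfrsf13c and from -3.19 to -1.10 for Rel. It ranged from 0.94 to 2.55 for Msr1, from 3.51 to 5.23 for Vcam1, from -0.94 to -0.62 for Cd4 and from -1.11 to -0.92 for Elane. Of the genes of the lists called in MCL vs BL, Cd4 stayed past the threshold in 15 of 20, Elane in 20 of 20 and Kdr in 5 of 20. Of 85 differences of the listed genes with a name by the rule that were not called, 17 passed the threshold without PCL1, and 0 or 1 without any other tumour. With normexp the Rel difference, PCL vs MCL, was -1.10, against -2.78 in the main setting, and the Spic difference, PCL vs MCL, was 2.32, against 3.19. Neither gene was measured where probes had to be well above background on all 11 arrays.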
